A study of Mus musculus with 12 samples.

Results

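The alpha- and beta-tubulin genes of 3 mouse melanocytic cell lines are described here across all 12 RNA-seq libraries of the series. The 10 genes were chosen by symbol, with earlier results on these libraries already known, and comprise 4 alpha-tubulin genes (Tuba1a, Tuba1b, Tuba1c and Tuba4a) and 6 beta-tubulin genes (Tubb2a, Tubb2b, Tubb3, Tubb4b, Tubb5 and Tubb6) of the 34513 genes in the count table. Among the values known at that time were falls of tubulin transcripts with treatment, so that for these 10 genes the counts of calls and the fold changes below are a description without p-values. RNA came from cultures of MelanA, a line labelled non-tumorigenic, and of B16F0 and B16F10, a pair of melanoma lines, each untreated and treated with SX-682, a small molecule that inhibits the chemokine receptors CXCR1 and CXCR2. There were 6 groups with 2 libraries in each. How much SX-682 these cultures received, and for how long, is not given in the sources used here, and the labels list the control treatment as none. Each line is a single established line, and whether the 2 libraries of a group came from separate cultures is not stated, so that the spread between them may be technical.

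Microtubules are polymers of heterodimers of alpha- and beta-tubulin, and each family is encoded by several genes whose proteins, called isotypes, differ mainly in an acidic tail at the carboxyl end. Dividing cells rely on a few widely expressed isotypes, whereas others, such as the beta-III isotype encoded by Tubb3, are best known from neurons and from tumours. Cells also adjust tubulin mRNA to the supply of free heterodimers: when it rises, the factor TTC5 recognises the first residues of tubulin emerging from the ribosome and, through SCAPER and the CCR4-NOT deadenylase complex, has the translated mRNA degraded. Newly made tubulin is folded with the help of prefoldin, the CCT chaperonin and a series of tubulin cofactors before it can join a microtubule.

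Reads counted on genes numbered from 48876982 to 85322092 per library. Counts were scaled to CPM, the count of a gene relative to the library's total after TMM adjustment, and the 18338 genes that passed edgeR's filter on low counts were fitted together. A gene is called higher or lower below when the quasi-likelihood test of edgeR gave a Benjamini-Hochberg adjusted p under 0.05. The biological coefficient of variation, estimated as 1 value common to all genes, was 2.78%, so that small differences passed this threshold. An exact permutation of 2 libraries against 2 cannot give a p under 0.333. All 10 genes passed the filter. The 7 melanocyte lineage markers examined were over a floor of 3 counts in every group, but their summed level was 1340 to 1370 CPM in untreated MelanA against 18600 to 18700 CPM in untreated B16F0 and 24400 to 24500 CPM in untreated B16F10. Tyr, which encodes tyrosinase, was at 0.760 and 0.892 CPM in untreated MelanA and at 65.8 to 517 CPM in the untreated B16 lines, so that this defining enzyme of pigment cells was low in MelanA. Sox10, a transcription factor of the same lineage, ran the other way, at 655 to 685 CPM in untreated MelanA, 445 to 460 CPM in B16F0 and 582 to 589 CPM in B16F10. Of 7 neuronal markers, 6 were in the count table. The absent gene and those at or under the floor together numbered 4 in untreated MelanA and B16F0 and 6 in B16F10. Snap25 and Nefl were among these in all groups. The neuronal sum was 54.7 to 58.1 CPM in untreated MelanA, 31.8 to 32.8 CPM in B16F0 and 0.970 to 1.04 CPM in B16F10. Nearly all of it was Map2, at 53.0 to 56.3, 31.7 to 32.6 and 0.939 to 1.03 CPM in the same order. The 6 fibroblast markers summed to 114 to 115 CPM in untreated MelanA, 16.1 to 16.7 CPM in B16F0 and 8.43 to 9.72 CPM in B16F10. Dcn and Lum were at or under the floor in both untreated B16 lines, and Col3a1 in B16F10. Most of the MelanA sum was Col1a1 (45.7 to 47.1 CPM) and Col3a1 (53.0 to 54.8 CPM). Col1a2 ran the other way, at 0.614 to 0.914, 2.35 to 2.36 and 4.50 to 5.79 CPM in the same order. Pdgfra was at 3.62 to 4.38, 7.84 to 8.38 and 1.24 to 1.42 CPM. The 6 keratinocyte markers summed to at most 6.59 CPM in any library. The leukocyte sum was 10.1 to 45.4 CPM, over the 4 of 5 markers that were in the count table. Adgre1 and Cd3e were each absent from it or at or under the floor in every group.

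All 10 tubulin mRNAs begin with 4 codons that encode the residues read in the autoregulation described above, which are methionine, arginine, glutamate and cysteine in alpha-tubulin, and methionine, arginine, glutamate and isoleucine in beta-tubulin. These starts are shown because the genes share them and the rule that chose the genes did not use them. The first 30 coding bases of the GENCODE M21 transcripts are given below for 9 of them, without Tubb6, 5′ to 3′, with the 12 bases that encode the motif in capitals.
Tuba1a: ATGCGTGAGTGCatctccatccatgttggc
Tuba1b: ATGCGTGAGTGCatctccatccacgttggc
Tuba1c: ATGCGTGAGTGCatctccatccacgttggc
Tuba4a: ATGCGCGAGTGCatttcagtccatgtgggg
Tubb2a: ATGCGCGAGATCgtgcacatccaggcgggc
Tubb2b: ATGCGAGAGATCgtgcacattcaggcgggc
Tubb3: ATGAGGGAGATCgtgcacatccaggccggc
Tubb4b: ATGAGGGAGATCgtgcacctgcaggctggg
Tubb5: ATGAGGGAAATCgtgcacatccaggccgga
Of 21660 protein-coding genes with a coding sequence in GENCODE M21, 9 began with the alpha motif and 9 with the beta motif. The alpha motif was held by 8 alpha-tubulin genes and by Gm49450, a gene model of 8 to 40 counts per library that overlaps Tuba1b and Tuba1a on the same strand, and the beta motif by 8 beta-tubulin genes and by Ing1, a chromatin reader of the ING family. The gamma-, delta- and epsilon-tubulin genes Tubg1, Tubg2, Tubd1 and Tube1 had neither motif.

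At the other end of the coding sequence the isotypes diverge, and the last 60 coding bases before the stop codon are shown for 3 of those whose levels differed most between lines or treatments, with the codons for aspartate and glutamate in capitals.
Tuba4a: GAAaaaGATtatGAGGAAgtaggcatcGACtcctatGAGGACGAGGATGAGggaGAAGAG
Tubb4b: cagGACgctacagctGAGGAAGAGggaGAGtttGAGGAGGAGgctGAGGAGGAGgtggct
Tubb3: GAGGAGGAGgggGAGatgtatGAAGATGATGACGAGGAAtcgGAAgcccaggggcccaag
Of these 20 codons, 12 in Tuba4a, 11 in Tubb4b and 11 in Tubb3 encoded an acidic residue. Tuba4a ends in a glutamate codon, without the final tyrosine that most alpha-tubulins carry and that vasohibins remove and tubulin tyrosine ligase restores. Translated from these transcripts, Tuba1a and Tuba1b differed at 2 of 451 residues, and Tubb2a and Tubb2b at 2 of 445. Tubb3 was 90.7% to 92.0% identical to the other 5 beta isotypes, and Tubb6 90.2% to 92.0%.

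Such likeness bears on how reads can be assigned. Of all windows of 100 bases in the coding transcript, 27.0% occurred in no other annotated gene for Tuba1b, 34.2% for Tuba1a, 46.6% for Tuba1c, 53.3% for Tuba4a, 63.1% for Tubb2a, 69.4% for Tubb4b and 72.3% for Tubb2b, against 100% for Tubb3, Tubb5 and Tubb6. How the authors counted reads that map to several genes is not given in the sources used here, so that the split between Tuba1a, Tuba1b and Tuba1c is the least certain value in the set, as is that between Tubb2a and Tubb2b where both are expressed. Tuba4a shares 37.3% of its exonic bases with Stk16 on the opposite strand. Without knowing whether counting used strand, reads of the 2 genes cannot be told apart there. In GRCm38 coordinates Tuba1a lies at chr15:98949837-98953703, Tuba1b at chr15:98931425-98934565 and Tuba1c at chr15:99029891-99038110, a cluster on a single chromosome. Tuba4a lies at chr1:75214228-75219865, Tubb2a at chr13:34074274-34078007, Tubb2b at chr13:34126748-34130466, Tubb3 at chr8:123411424-123422015, Tubb4b at chr2:25222160-25224702, Tubb5 at chr17:35833921-35838306 and Tubb6 at chr18:67390717-67402749.

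To see how SX-682 acted on tubulin mRNA as a whole, the 10 genes were first summed. Together they took 0.410% and 0.419% of all counts in untreated MelanA and 0.237% and 0.238% with SX-682. In B16F0 the share was 0.464% and 0.459% untreated against 0.231% and 0.232% with SX-682, and in B16F10 it was 0.339% and 0.334% against 0.186% and 0.187%. Within each line both treated libraries lay below both untreated ones. Per kilobase of the gene length given by the authors, the sum over all alpha-tubulin genes was 50.8% of its untreated level in MelanA, 49.7% in B16F0 and 50.7% in B16F10, and that over all beta-tubulin genes 57.0%, 49.3% and 53.6%. Since these are levels relative to all mRNA in bulk cultures, fewer tubulin transcripts per cell and a changed mixture of cells cannot be told apart. Cell type markers also moved with SX-682. The 7 melanocyte lineage markers were all called lower in both B16 lines, where 25.0% (B16F0) and 25.3% (B16F10) of all genes were. Some of these changes were small, such as -0.14 on the log2 scale for both Pmel and Tyrp1 in B16F0. The sum of the 7 was 18600 to 18700 CPM untreated against 15800 to 16000 CPM in B16F0, and 24400 to 24500 CPM against 14900 to 15200 CPM in B16F10. In MelanA 4 were lower and 2 higher, where 24.7% and 23.4% of all genes were, and the sum was 1350 to 1360 CPM with SX-682. The fibroblast sum in MelanA was 114 to 115 CPM untreated and 93.5 to 94.8 CPM with SX-682. Cd68, a marker of macrophages and lysosomes, was at 15.9 to 16.1 CPM and 43.9 to 45.3 CPM there (log2 fold change 1.48, adjusted p = 1e-17, edgeR's quasi-likelihood test). It was picked after its values were seen, so this p is a description only. Neither Adgre1 nor Cd3e was over the floor. The part of these markers in the fall of the tubulin genes was not tested.

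**Figure D1:**
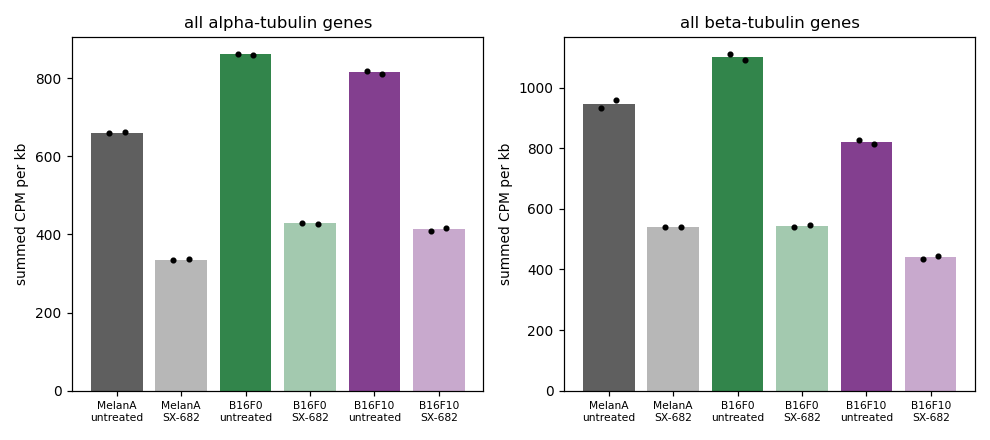
Summed level of all alpha-tubulin genes (left) and all beta-tubulin genes (right) in CPM per kilobase for each group, with bars at the mean of 2 libraries and dots for the libraries. The alpha sum was at 659 and 662 in untreated MelanA and at 334 and 336 with SX-682, and the treated bars stand well below the untreated ones in every line.

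By gene, 7 of the 10 were called lower with SX-682 in MelanA, where 24.7% of all tested genes were called lower, 10 of 10 in B16F0 (25.0%) and 9 of 10 in B16F10 (25.3%). None of the 10 was called higher in any line, where 23.4%, 25.1% and 25.5% of all genes were. Calls were more frequent among abundant genes. Of 686 genes over a log2 CPM of 8, 324, 271 and 325 were called lower in MelanA, B16F0 and B16F10, and 265, 312 and 274 higher. The median log2 fold change of the 10 was -0.82 in MelanA, -1.19 in B16F0 and -0.98 in B16F10, beside 0.00 over all genes in each. The 7 genes Tuba1a, Tuba1b, Tuba1c, Tubb2a, Tubb4b, Tubb5 and Tubb6 were called lower in all 3 lines, as were 11.7% of all genes, with 11.3% called higher in all 3. The MelanA exceptions were the 3 genes with the least mRNA in that line, Tuba4a, Tubb2b and Tubb3. Because falls of tubulin transcripts were among the reasons for the choice of genes, nothing about the set is read from these counts.

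**Figure D2:**
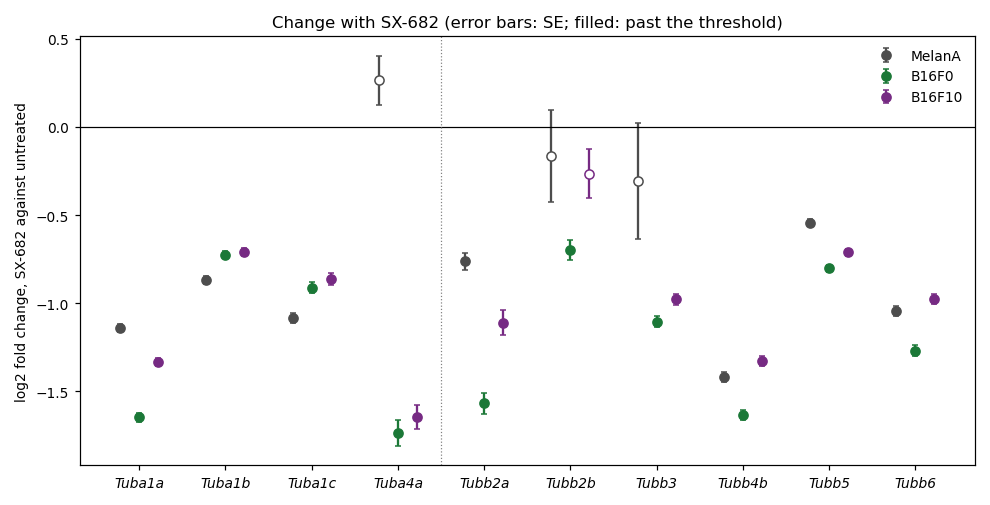
Log2 fold change with SX-682 against untreated for each gene (alpha-tubulins left of the dotted line) in MelanA, B16F0 and B16F10, with the standard error as bars and filled points for called genes. Values run from -1.74 for Tuba4a in B16F0 to 0.26 for Tuba4a in MelanA.

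Among the alpha-tubulins, Tuba1a, an isotype abundant in developing neurons, was at 347 and 343 CPM in untreated MelanA and 157 and 156 CPM with SX-682. In B16F0 it was at 511 and 509 CPM against 163 and 163 CPM, and in B16F10 at 312 and 309 CPM against 123 and 124 CPM. The treated libraries of all 3 lines thus lay far under their controls and closer to each other than the untreated ones had been. The log2 fold change was -1.14 (SE 0.024) in MelanA, -1.65 (SE 0.024) in B16F0 and -1.33 (SE 0.024) in B16F10.

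Tuba1b, the major alpha isotype of most dividing cells, was at 660 and 667 CPM in untreated MelanA and 361 and 366 CPM with SX-682. It was at 853 and 862 CPM against 520 and 518 CPM in B16F0, and at 791 and 793 CPM against 479 and 490 CPM in B16F10. Its log2 fold changes of -0.87 (SE 0.021), -0.72 (SE 0.021) and -0.71 (SE 0.021) were the smallest falls among the 4 alpha genes in each B16 line.

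Tuba1c, a further widely expressed alpha isotype, was at 259 and 262 CPM in untreated MelanA and at 124 and 122 CPM with SX-682. In B16F0 the libraries stood at 250 and 239 CPM against 132 and 128 CPM, and in B16F10 at 162 and 154 CPM against 87.9 and 86.1 CPM. Like Tuba1b, and unlike the other 8 genes, it had its strongest fall in MelanA, with a log2 fold change of -1.08 (SE 0.030) there, -0.91 (SE 0.030) in B16F0 and -0.86 (SE 0.032) in B16F10.

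Tuba4a, which alone of the 4 alpha genes described here lacks the final tyrosine, had the strongest fall of the 10 genes in both B16 lines. Its level was 52.8 and 51.2 CPM in untreated B16F0 against 15.6 and 15.6 CPM with SX-682, a log2 fold change of -1.74 (SE 0.072). In B16F10 it was 70.7 and 64.1 CPM against 22.1 and 20.9 CPM, a log2 fold change of -1.65 (SE 0.068). MelanA held little Tuba4a mRNA, with 1.70 and 2.38 CPM untreated and 2.13 and 2.77 CPM with SX-682, and the treated and untreated libraries overlapped there. Stk16, which encodes a kinase and overlaps Tuba4a on the other strand, had log2 fold changes of -0.24, -0.87 and -0.23 in the 3 lines in the same order (adjusted p = 2.2e-06, 5.9e-17 and 4e-06 in edgeR's quasi-likelihood test). Its untreated level of 72.8 and 74.1 CPM in MelanA was above that of Tuba4a in the same libraries, and its part in the Tuba4a counts was not tested. Stk16 was named after values were seen.

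**Figure D3:**
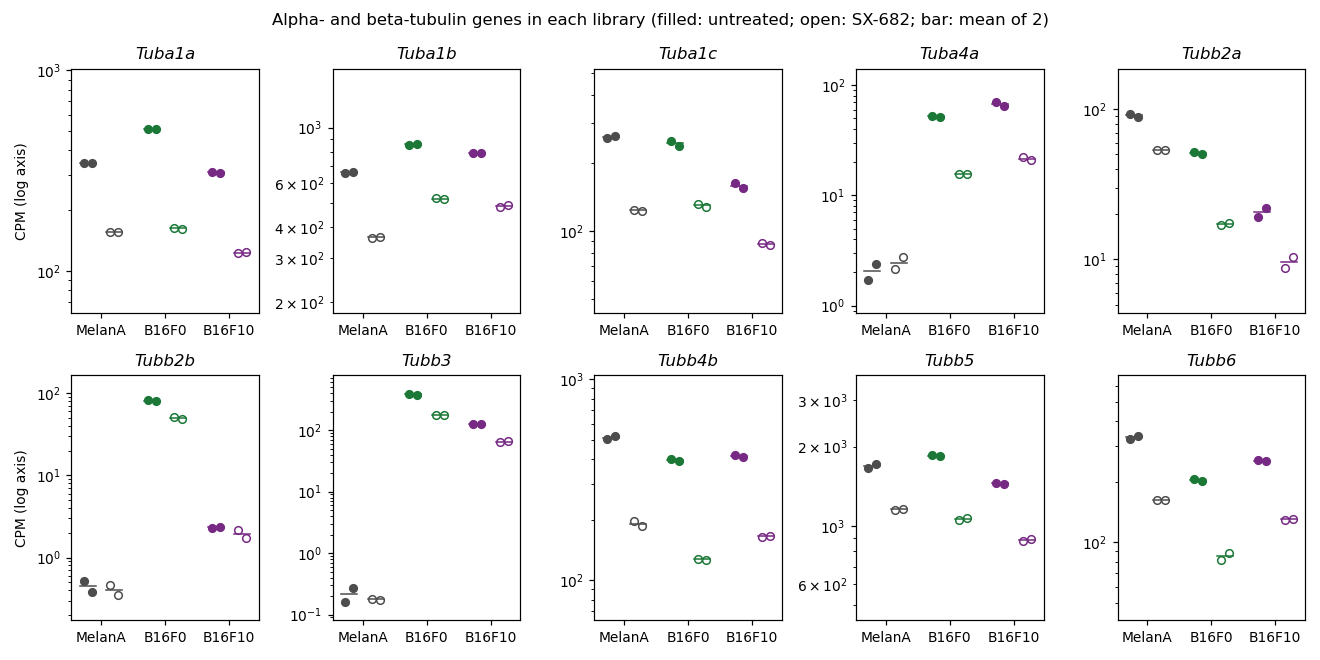
CPM of each of the 10 genes in every library on a log axis, with filled points for untreated and open points for SX-682 libraries and a bar at the mean of 2. Tubb3 is at 0.162 and 0.275 CPM in untreated MelanA and at 388 and 377 CPM in untreated B16F0, while Tubb5 lies between 877 and 1861 CPM in all 12 libraries.

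Tubb4b, a broadly expressed beta isotype also found in cilia, had the strongest fall of all 10 genes in MelanA and of the 6 beta-tubulins in each line. Its libraries were at 503 and 521 CPM in untreated MelanA and at 196 and 187 CPM with SX-682, at 398 and 390 CPM against 127 and 127 CPM in B16F0, and at 421 and 410 CPM against 165 and 166 CPM in B16F10. The log2 fold changes were -1.42 (SE 0.027), -1.63 (SE 0.028) and -1.33 (SE 0.027), and the treated and untreated libraries were far apart in each line.

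Tubb5, the most abundant beta isotype of these lines per kilobase, had the smallest fall among the 7 genes called in MelanA. It was at 1662 and 1711 CPM in untreated MelanA against 1150 and 1163 CPM with SX-682, a log2 fold change of -0.54 (SE 0.019). In B16F0 it was at 1861 and 1836 CPM against 1053 and 1068 CPM (log2 fold change -0.80, SE 0.019), and in B16F10 at 1460 and 1436 CPM against 877 and 891 CPM (log2 fold change -0.71, SE 0.019).

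Tubb6, a divergent beta isotype, was at 328 and 339 CPM in untreated MelanA against 162 and 162 CPM with SX-682. In B16F0 it stood at 208 and 203 CPM against 81.8 and 88.7 CPM, and in B16F10 at 256 and 255 CPM against 129 and 131 CPM. Its log2 fold changes of -1.04 (SE 0.029), -1.27 (SE 0.032) and -0.98 (SE 0.030) were within 0.30 of each other.

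Tubb2a and Tubb2b, neighbouring genes with near-identical products, differed in their lines of expression and in their response. Tubb2a was at 93.4 and 89.0 CPM in untreated MelanA against 53.5 and 53.9 CPM with SX-682, at 51.7 and 50.3 CPM against 17.0 and 17.5 CPM in B16F0, and at 19.2 and 21.97 CPM against 8.76 and 10.3 CPM in B16F10. Its log2 fold changes were -0.76 (SE 0.049), -1.57 (SE 0.059) and -1.11 (SE 0.071). Tubb2b was at 81.8 and 80.0 CPM in untreated B16F0 and 51.4 and 48.0 CPM with SX-682, a log2 fold change of -0.70 (SE 0.057). In B16F10 it was at 2.32 and 2.36 CPM against 2.18 and 1.71 CPM, and in MelanA at 0.521 and 0.385 CPM against 0.463 and 0.346 CPM. In neither of these lines was the difference called, with log2 fold changes of -0.27 (SE 0.14) and -0.16 (SE 0.26), and in MelanA the libraries overlapped. Without the first SX-682 library of B16F10, the Tubb2b change in that line was -0.46 and was called.

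Tubb3, the beta-III isotype, was at 388 and 377 CPM in untreated B16F0 against 176 and 180 CPM with SX-682, a log2 fold change of -1.10 (SE 0.030). In B16F10 it was at 128 and 128 CPM against 64.2 and 65.6 CPM, a log2 fold change of -0.98 (SE 0.033). Only 13 to 25 counts per library fell on Tubb3 in MelanA, where the log2 fold change of -0.31 had an SE of 0.33 and no difference was detectable at this depth.

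The falls were unequal, and the make-up of tubulin mRNA in each line was measured as each gene's share of its family's summed CPM per kilobase. Tuba1b made up 53.6% of alpha-tubulin mRNA in untreated MelanA and 57.8% with SX-682, against 53.1% and 64.7% for B16F0, and 51.8% and 62.6% for B16F10. Tuba1a held 29.0% untreated and 25.9% treated in MelanA, 32.8% and 21.1% in B16F0, and 21.2% and 16.6% in B16F10. On the beta side, Tubb5 held 53.6% untreated and 64.4% treated in MelanA, 50.5% and 58.8% in B16F0, and 53.0% and 60.4% in B16F10, while for Tubb4b these shares were 25.9% and 17.0%, 17.2% and 11.2%, and 24.2% and 17.99%. The largest isotype of each family thus held a larger share of a smaller total after treatment. Tubb3 kept close to its share, at 18.6% and 17.6% in B16F0 and 8.33% and 7.90% in B16F10. These shares are descriptions and were not tested. They inherit the uncertain split among the Tuba1 genes.

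**Figure D4:**
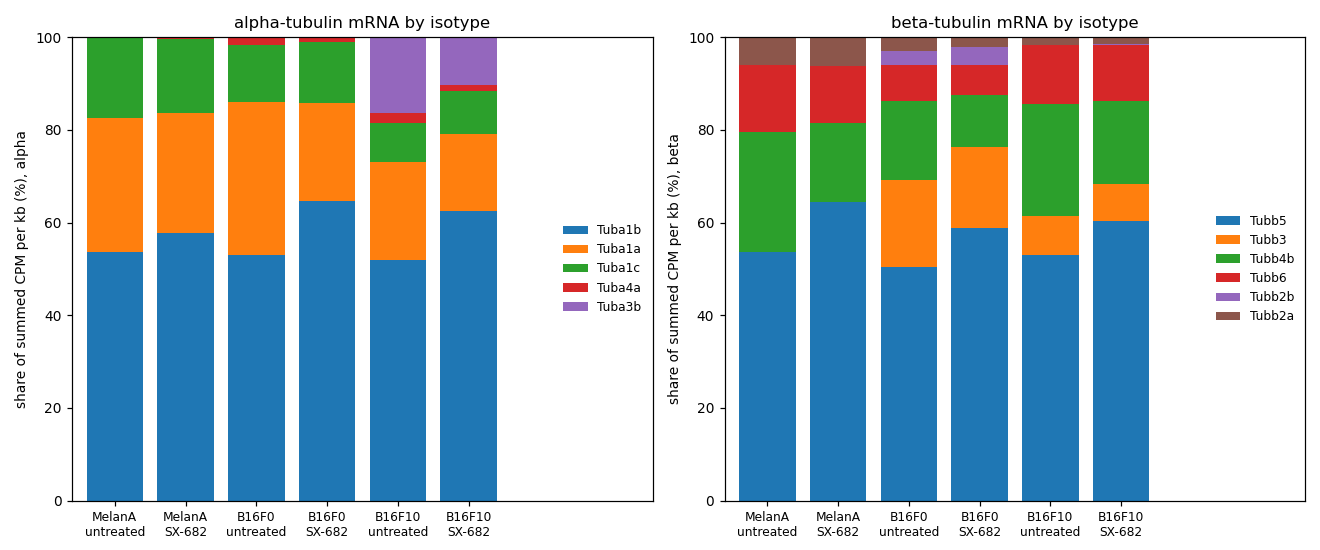
Mean share (percent) of each isotype in the summed CPM per kilobase of alpha-tubulin (left) and beta-tubulin (right) genes, for 3 lines untreated and with SX-682; isotypes that never exceed 1% are left out. Tuba1b and Tubb5 take the largest segment in all 6 groups, Tubb3 appears in the B16 lines and Tuba3b in B16F10.

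The summed alpha level relative to the summed beta level was 0.706 and 0.691 in untreated MelanA and 0.619 and 0.624 with SX-682. In B16F0 it was 0.776 and 0.789 against 0.798 and 0.781, with the libraries overlapping, and in B16F10 0.990 and 0.995 against 0.939 and 0.938. The ratio was thus at 89.0%, 101% and 94.6% of its untreated value. Alpha mRNA fell somewhat more than beta mRNA in MelanA and B16F10, where treated and untreated libraries did not overlap, and the falls were alike in B16F0.

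The falls were next compared between lines. In B16F0 relative to MelanA, the SX-682 change was called lower for 6 of the 10 genes, where 16.6% of all genes were, and higher for Tuba1b and Tuba1c (17.7% of all genes). Tuba4a and Tubb2a differed most, by -2.00 (SE 0.16) and -0.80 (SE 0.077) on the log2 scale. In B16F10 relative to MelanA, 4 genes were called lower (16% of all genes), namely Tuba1a, Tuba4a, Tubb2a and Tubb5, and again Tuba1b and Tuba1c were called higher (17.8%). In B16F10 relative to B16F0, 7 genes were called higher (15.3%) and 0 lower (14.9%), which means weaker falls in B16F10 for Tuba1a, Tubb2a, Tubb2b, Tubb3, Tubb4b, Tubb5 and Tubb6. The Tubb3 and Tubb5 differences here were only 0.13 (SE 0.044) and 0.09 (SE 0.027), and the call was lost for Tubb3 (0.10 to 0.13) with any of 6 single B16 libraries left out and for Tubb5 (0.07 to 0.08) with any of 3, as it was for Tubb2b (0.24 to 0.44) with any of 5. The count of 7 became 4 without the first untreated library of B16F0 or the second untreated library of B16F10. All 3 comparisons share libraries, so that they are not independent of each other.

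Untreated, the lines differed most in 4 isotypes, of which 3 were low in MelanA. Tubb3 was at 0.162 and 0.275 CPM in MelanA, 388 and 377 CPM in B16F0 and 128 and 128 CPM in B16F10, a log2 fold change of 10.75 (SE 0.067) for B16F0 and 9.17 (SE 0.073) for B16F10 against MelanA. Tuba4a was 25.4-fold higher in B16F0 and 32.9-fold higher in B16F10 than in MelanA. Tubb2b was 178-fold higher in B16F0 than in MelanA and 34.6-fold lower in B16F10 than in B16F0. In the other direction, Tubb2a was highest in MelanA, with a log2 fold change of -0.84 (SE 0.049) in B16F0 and -2.15 (SE 0.055) in B16F10. No libraries of different lines overlapped for these 4 genes.

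The remaining 6 genes differed by at most 0.72 on the log2 scale between any 2 untreated lines. Tubb6 was highest in MelanA (log2 fold change -0.70 in B16F0 and -0.38 in B16F10), Tuba1a in B16F0 (0.56 against MelanA), and Tuba1c was lowest in B16F10 (-0.72 against MelanA). In all, 4 genes were called lower and 6 higher in B16F0 than in MelanA, where 40.6% and 35.3% of all genes were, 6 lower and 4 higher in B16F10 than in MelanA (40.8% and 33.4%), and 7 lower and 3 higher in B16F10 than in B16F0 (31.2% and 30.8%), where Tubb4b, at 0.07 in the higher direction, turned to -0.02 with scaling by library total. With scaling by library total, the split over all genes between B16F10 and MelanA moved from 7482 lower and 6119 higher to 8998 lower and 4694 higher, and the median of all genes from -0.10 to -0.29, while the counts of 6 and 4 for these 10 genes were as before. Of the 7 melanocyte lineage markers, 6 were called higher and Sox10 lower in each B16 line than in MelanA, and their part in the isotype differences was not tested.

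**Figure D5:**
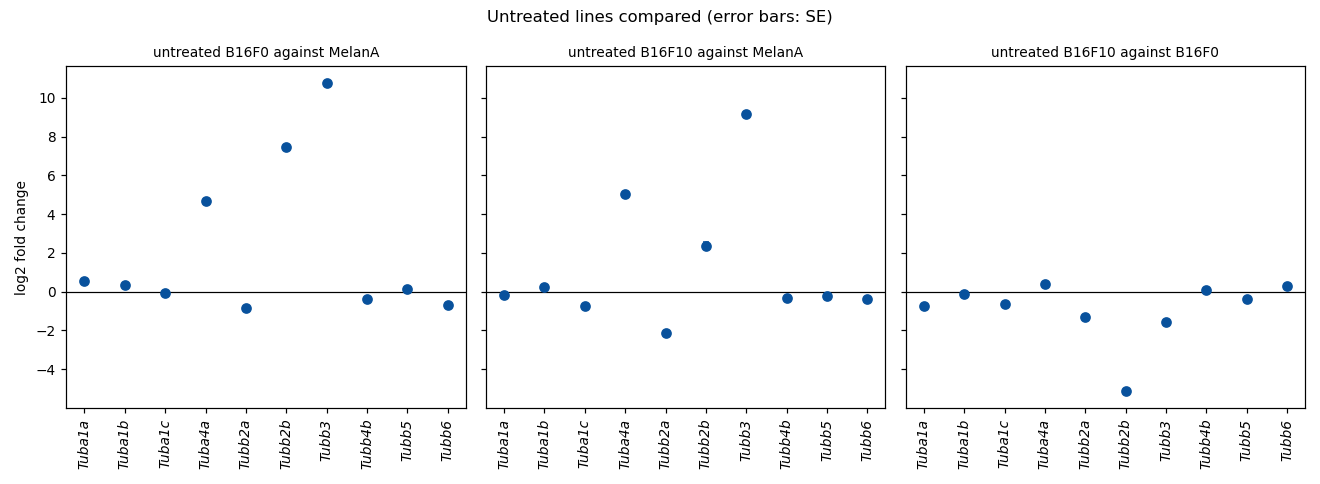
Log2 fold change of the 10 genes between untreated lines, with the standard error as bars. Tubb3 stands at 10.75 and 9.17 against MelanA, and Tubb2b at 7.48 in B16F0 and 2.37 in B16F10.

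Ranked per kilobase, Tubb5 was first and Tuba1b the next in every line, at 507 and 354 CPM per kilobase in untreated MelanA, 556 and 457 in B16F0, and 435 and 422 in B16F10. Tubb4b followed in MelanA (245) and B16F10 (199), and Tuba1a in B16F0 (283), where Tubb3 came next with 205, ahead of Tubb4b with 189. This last order depends on the length used: with the length of the coding transcript, Tubb3 held 15.3% and Tubb4b 18.5% of beta-tubulin mRNA in untreated B16F0. In MelanA Tuba4a (0.551), Tubb2b (0.198) and Tubb3 (0.117) came last. In untreated libraries the ranges of neighbours in this order did not overlap except for Tuba1c and Tubb3 in B16F10, at 69.2 and 68.4 CPM per kilobase.

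The table held 10 further tubulin genes, of which 9 were tested. Tuba3b, an alpha-tubulin gene best known from testis, was at 236 and 234 CPM in untreated B16F10 (14303 and 14973 counts) and was at 0 to 6 counts in the 8 MelanA and B16F0 libraries. Against the B16F0 controls, whose mean was under the floor of 3 counts per library, this is at least 5560-fold higher. With SX-682 it was at 74.5 and 75.6 CPM in B16F10, a log2 fold change of -1.65 (SE 0.041, adjusted p = 6.4e-24, edgeR's quasi-likelihood test). It made up 16.3% of alpha-tubulin mRNA per kilobase in untreated B16F10 and 10.2% with SX-682. Of its windows of 100 bases, 88.2% occurred in no other annotated gene, and Tuba3a, whose product is identical to that of Tuba3b in all 450 residues, had at most 15 counts per B16F10 library.

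Tubg1, the gamma-tubulin that nucleates microtubules at centrosomes and that lacks the motif at its start, fell in all 3 lines, with log2 fold changes of -0.44, -0.64 and -0.54 in MelanA, B16F0 and B16F10 (adjusted p = 3.1e-13, 4.8e-17 and 9.8e-15, edgeR's quasi-likelihood test). Its paralog Tubg2 rose in B16F10, from 12.7 and 11.9 CPM to 17.6 and 18.9 CPM (log2 fold change 0.57, SE 0.092, adjusted p = 4.1e-06), and was 51.0-fold and 45.1-fold higher in untreated B16F0 and B16F10 than in MelanA. Tubd1, a delta-tubulin of centrioles, fell in MelanA (-0.61, adjusted p = 2.4e-08) and B16F0 (-0.31, adjusted p = 0.00077), and Tube1, epsilon-tubulin, rose in B16F10 (0.28, adjusted p = 0.015). Of the 18 genes that begin with the alpha or beta motif, 17 were tested and 9 were called lower in MelanA, 11 in B16F0 and 12 in B16F10, with 0 higher and medians of -0.76, -0.80 and -0.98, beside 24.7%, 25.0% and 25.3% of all genes called lower and 23.4%, 25.1% and 25.5% called higher. The 4 tubulin genes without it had 2, 2 and 1 called lower and 0, 0 and 2 higher, with medians of -0.27, -0.22 and 0.09. The larger set holds the 10 genes chosen with their falls known, which make up 7, 10 and 9 of its genes called lower. Its others called lower were Tuba3b and Ing1 in MelanA, Ing1 in B16F0, and Tuba3a, Tuba3b and Ing1 in B16F10. Nothing about the motif is read from these counts, and the sets were not tested against each other. Ing1, the gene outside the family with the beta motif, fell by 0.24, 0.51 and 0.30 on the log2 scale in MelanA, B16F0 and B16F10 (adjusted p = 5.1e-06, 7.1e-12 and 2.2e-07, edgeR's quasi-likelihood test). It was named after values were seen. Tuba3a, Tuba8, Tubb1 and Tubb4a had at most 78 counts in any library and Tubal3 at most 2.

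Among genes that act on tubulin mRNA and on tubulin folding, each list had members called in both directions in at least 2 lines. The counts in the lists that follow stand beside 24.7%, 25.0% and 25.3% of all genes called lower and 23.4%, 25.1% and 25.5% called higher in MelanA, B16F0 and B16F10. Scaper, whose product links TTC5 to the deadenylase, rose in all 3 lines by log2 fold changes of 0.51 (SE 0.053), 0.80 (SE 0.048) and 1.12 (SE 0.054), with adjusted p = 1.5e-09, 1.8e-14 and 6.3e-17 in edgeR's quasi-likelihood test. Ttc5 was at a mean of 37.1 CPM in MelanA both without and with SX-682, and fell in B16F0 by 0.36 on the log2 scale (adjusted p = 2.2e-07), while its log2 fold change for B16F10 was -0.10 (adjusted p = 0.082). Of the 13 genes of this list, which holds Ttc5, Scaper and genes of the CCR4-NOT complex, 3 were lower and 5 higher in MelanA, 5 and 5 in B16F0, and 5 and 6 in B16F10. Cnot6, which encodes a deadenylase, and Cnot9 were lower in all 3, and Cnot4, Cnot6l and Cnot8 higher, with the Cnot6 log2 fold changes at -0.36, -0.41 and -0.50.

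Of the 6 prefoldin subunits, 2 were lower and 2 higher in MelanA, 1 and 2 in B16F0, and 1 and 4 in B16F10. Pfdn5 and Pfdn1 rose in all 3 lines, by 0.12, 0.24 and 0.36 for Pfdn5 and by 0.11, 0.21 and 0.16 for Pfdn1 on the log2 scale in MelanA, B16F0 and B16F10. For the 8 CCT chaperonin subunits the counts were 1 and 3, 4 and 3, and 5 and 2, with Cct4 rising by 0.28, 0.30 and 0.37, Cct2 by 0.22, 0.13 and 0.20, and Cct3 falling by 0.16, 0.16 and 0.30 on the log2 scale. All 8 CCT subunits were higher in both untreated B16 lines than in MelanA, where 35.3% and 33.4% of all genes were, with median log2 fold changes of 0.87 and 0.73. Among 8 tubulin cofactors and their partners 0 were lower and 4 higher in MelanA, and 1 lower and 7 higher in both B16F0 and B16F10. Arl2, a small GTPase that works with the cofactors, rose by 0.37, 0.36 and 0.66, Tbcel by 0.26, 0.24 and 0.26, and Tbce by 0.30, 0.24 and 0.59. The single genes named in this paragraph were picked for an adjusted p under 0.05 in all 3 lines in edgeR's quasi-likelihood test. Their passing is therefore not a further result.

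Of 16 enzymes that modify tubulin, 6 were lower and 2 higher in MelanA, 8 and 2 in B16F0, and 6 and 5 in B16F10. Ttll4, which adds glutamates to the tubulin tail, fell by 0.64, 0.78 and 1.31 on the log2 scale (adjusted p = 6.8e-14, 1.7e-15 and 3.8e-20, edgeR's quasi-likelihood test). Ttll3, a glycylase, fell by 0.59, 1.15 and 0.60, and Vash1, a vasohibin that removes the final tyrosine, by 0.64, 0.33 and 0.40. Sirt2, a deacetylase that acts on tubulin, rose by 0.21, 0.14 and 0.11. Among 29 tested microtubule regulators 18 were lower and 5 higher in MelanA, 9 and 9 in B16F0, and 9 and 10 in B16F10, the shares of all genes being those given above. Stmn1, whose product stathmin binds free heterodimers, fell by 0.72, 0.48 and 0.32, Mapre2, an end-binding protein, by 0.43, 0.44 and 0.40, and Dpysl2, which binds heterodimers, by 0.40, 0.30 and 0.28. Katna1, the catalytic subunit of the severing enzyme katanin, rose by 0.33, 0.36 and 0.76, and Mapre3 by 0.17, 0.26 and 0.60, all past the threshold.

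Markers of dividing cells also moved with SX-682. All 10 of the proliferation markers examined were lower in MelanA, 9 in B16F0 and 6 in B16F10, beside 24.7%, 25.0% and 25.3% of all genes. Their median log2 fold changes were -0.82, -0.40 and -0.09. All were over the floor in every group, and their sum was 3390 to 3400 CPM in untreated MelanA against 1930 to 1940 CPM with SX-682, 2370 to 2380 CPM against 1930 to 1950 CPM in B16F0, and 2100 CPM in both untreated libraries against 1970 to 1990 CPM in B16F10. The medians of the 10 tubulin genes were -0.82, -1.19 and -0.98. The MelanA value includes Tuba4a, Tubb2b and Tubb3, which had little mRNA in that line. Whether the change of the proliferation markers has a part in that of the tubulin genes was not tested. Of 8 genes for other cytoskeletal proteins, 7 were lower and 1 higher in MelanA, 2 and 6 in B16F0, and 3 and 5 in B16F10, where 23.4%, 25.1% and 25.5% of all genes were called higher. Of these, Actb, which encodes beta-actin, had log2 fold changes of -0.45, -0.15 and -0.14, and Vim, which encodes vimentin, of 0.06, 0.24 and 0.45 in MelanA, B16F0 and B16F10, all past the threshold. Lmnb1, which encodes lamin B1, fell by 1.21, 1.08 and 1.25 on the log2 scale (adjusted p = 4.2e-23, 3.1e-21 and 2.5e-23, edgeR's quasi-likelihood test). Actb, Vim and Lmnb1 were picked from the 8 after their values were seen, so their calls and adjusted p are descriptions only.

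Promoter sequences were available for 8 of the 10 genes, without Tubb2b and Tubb6. In the 250 bases before the RefSeq start, on either strand, CCAAT was found in 5 of 8 against 33.8% of all 32851 promoters, GGGCGG in 6 of 8 against 32.7%, TATAAA in 1 of 8 against 12.4% and TGACGTCA in 1 of 8 against 1.55%. Each motif was counted on its own, whether or not it overlapped another. The promoters of Tubb4b, the beta-tubulin with the strongest fall, and of Tubb5, the beta-tubulin with the smallest fall in MelanA among those called, are given below from RefSeq (GRCm38.p6), both on the minus strand and written 5′ to 3′, with CCAAT and GGGCGG in capitals.
Tubb4b, chr2:25224703-25224952: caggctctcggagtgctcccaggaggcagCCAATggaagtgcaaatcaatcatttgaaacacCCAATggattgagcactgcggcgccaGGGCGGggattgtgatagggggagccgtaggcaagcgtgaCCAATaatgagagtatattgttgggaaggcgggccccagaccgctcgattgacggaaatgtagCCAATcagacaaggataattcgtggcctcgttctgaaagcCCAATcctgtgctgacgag
Tubb5, chr17:35838302-35838551: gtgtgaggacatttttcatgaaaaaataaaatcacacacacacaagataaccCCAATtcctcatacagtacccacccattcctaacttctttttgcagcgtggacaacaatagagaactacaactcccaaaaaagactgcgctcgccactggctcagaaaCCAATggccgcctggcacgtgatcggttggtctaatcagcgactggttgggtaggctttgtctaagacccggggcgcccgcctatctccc
CCAAT, the element bound by NF-Y, occurs 5 times in the first and 2 times in the second window. A match of letters is a description and does not show that a factor binds there.

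Among 9368 other genes with a mean log2 level over 3, those whose level over the 12 libraries was most like the mean of the 10 tubulin genes were Paqr7 (Pearson r = 0.995), Galnt11 (0.993), Mrs2 (0.992), Akt1 (0.991) and Rbis (0.990). Log2 levels were centred for each gene but not scaled, so genes with wide ranges weigh most in this mean. Tubb3, Tubb2b and Tuba4a, all low in MelanA, had the widest ranges. Tubb3 was at a mean of 0.219 CPM in untreated MelanA and 382 CPM in untreated B16F0. Likeness to this mean is therefore not likeness to each of the 10 genes. Most like Tuba1a were Polq (0.986), Depdc5 (0.985) and C330007P06Rik (0.985), and most like Tubb3 were Stx7 (0.998), Car14 (0.997) and Tmem242 (0.997). With 6 groups of near-identical libraries these values mostly reflect 6 group means, and they describe likeness of pattern and nothing more.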

How the data were processed

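RNA of 12 libraries, 2 in each of 6 groups, was analysed from the count table deposited by the authors. The authors made the raw counts of reads per gene, without normalization; the submitters' processing notes name cutadapt, STAR and DESeq2 and the build mm10 with no version, and the counting program, its strand setting and its treatment of reads that map to several genes are not given in the sources used here. Columns were matched to samples by name, and groups come from the labels. Gene coordinates of the table were equal to those of GENCODE M21 (GRCm38) for all tubulin genes.

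Counts were scaled by TMM and tested with edgeR 4.0.16 (quasi-likelihood F-test, all 12 libraries in a single fit, its default expression filter, Benjamini-Hochberg adjustment, threshold 0.05) in R 4.3.3. Standard errors come from the F statistic. The contrasts were SX-682 against untreated in each line, untreated lines against each other, and differences between lines of the SX-682 change. Levels between genes were compared as CPM per kilobase of the length the authors give. Pearson correlations used log2(CPM + 0.1). A floor of 3 counts per library was used, and floors cover counting error only. The fit was tested on simulated data. Windows, translations and motifs were computed from GENCODE M21 transcripts and RefSeq promoters with Python 3.11.15 and Biopython 1.88.

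The 10 genes, the other tubulins and the lists of genes acting on tubulin were chosen with earlier results of these data known. Named from the lists of genes acting on tubulin were Ttc5 and Scaper, and from each list up to 3 genes that rose and 3 that fell in all 3 lines, taken by the largest minimum change; proliferation markers and other cytoskeletal genes were described by counts. Actb, Vim, Lmnb1, the single cell type markers, the neighbours of Tubb3 and Tuba3b, Stk16, Ing1 and Gm49450 were chosen after values were seen. Alternatives were RLE and library total scaling, DESeq2 1.42.0, other filters, the replicate number as a block, a separate fit of each line, each library left out, and shares without length correction; the length of the coding transcript was added after the data were seen.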

Additional observations from a re-analysis of the deposited data

Results flagged for a closer look

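The SX-682 change was compared between lines for each of the 10 genes, and 21 of these 30 differences passed an adjusted p of 0.05 when the difference itself was tested with edgeR, in at least 1 comparison for each of the 10 genes. Of all genes, 16.6% passed in the lower and 17.7% in the higher direction in B16F0 relative to MelanA, 16% and 17.8% in B16F10 relative to MelanA, and 14.9% and 15.3% in B16F10 relative to B16F0. All are given on the log2 scale, as the change in the first line minus that in the second, and since the genes were chosen with their changes known they are values with no p.

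In B16F0 relative to MelanA, the difference was -0.51 for Tuba1a, 0.14 for Tuba1b, 0.17 for Tuba1c, -2.00 for Tuba4a, -0.80 for Tubb2a, -0.21 for Tubb4b, -0.26 for Tubb5 and -0.23 for Tubb6. In B16F10 relative to MelanA it was -0.19 for Tuba1a, 0.16 for Tuba1b, 0.22 for Tuba1c, -1.91 for Tuba4a, -0.35 for Tubb2a and -0.17 for Tubb5. In B16F10 relative to B16F0 it was 0.32 for Tuba1a, 0.46 for Tubb2a, 0.44 for Tubb2b, 0.13 for Tubb3, 0.31 for Tubb4b, 0.09 for Tubb5 and 0.30 for Tubb6. The Tuba4a differences against MelanA rest on 147 to 216 counts per MelanA library. With 2 libraries per group, single libraries could not be examined as outliers.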

How the results depend on the processing

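Of the refitted fold changes of the 10 genes, 1612 kept their direction and their side of the threshold, 21 lost it, 6 gained it and 11 changed sign. The 7, 10 and 9 genes called lower with SX-682 in MelanA, B16F0 and B16F10 were 7, 10 and 9 under RLE scaling, library total scaling, DESeq2, both other filters, the replicate block and a separate fit of each line. With each library left out they were 7, 10, and 9 to 10, where Tubb2b in B16F10 gained the call (-0.46) without the first SX-682 library of that line. The number called higher was 0 to 1 in MelanA when libraries were left out: without the second untreated library or the first SX-682 library of MelanA, Tuba4a was called higher (0.53 and 0.45). In B16F10 minus B16F0 the 7 genes called higher became 4 to 7 with libraries left out and 5 with RLE scaling. Sign changes were in small values: with single libraries left out, Tubb2b in MelanA ran from -0.37 to 0.072, Tubb3 in MelanA from -0.619 to 0.134 and Tubb2b in B16F10 minus MelanA from -0.341 to 0.102; Tubb4b in untreated B16F10 against B16F0 was -0.018 with library total scaling, and Tuba1b in B16F10 minus B16F0 was -0.007 with RLE scaling and with DESeq2, -0.003 with at least 10 counts in every library, and -0.001 to 0.024 with single libraries left out. The cause was not tested.

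Samples with the same replicate number showed no detectable shared deviation (correlations of 0.003 in MelanA, -0.009 in B16F0 and -0.013 in B16F10). Libraries prepared in pairs without a common shift would give the same values, so whether the numbers pair them is not settled. The replicate block left 7, 10 and 9 genes called lower with SX-682. Depth limits Tubb3 and Tubb2b in MelanA. In each group Tuba1b and Tubb5 had the largest share of their family with every length used, including none, and without length correction Tubb5 made up 64.3% of beta-tubulin mRNA in untreated MelanA and 73.9% with SX-682.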

Other observations

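Tubb3 starts 679 bases beyond the end of Mc1r, the melanocortin receptor gene of pigment cells, on mouse chromosome 8. Mc1r was at 2.93 and 3.57 CPM in untreated MelanA, 284 CPM in both B16F0 libraries, and 219 and 224 CPM in B16F10, so that both neighbours were low in the same line. With SX-682 their changes differed in B16F0, where Mc1r had a log2 fold change of -0.12 (SE 0.030) and Tubb3 of -1.10 (SE 0.030), and were closer in B16F10, where they were -0.84 (SE 0.032) and -0.98 (SE 0.033). Def8, which begins 1511 bases beyond the end of Tubb3, was at 64.9 to 71.8 CPM in the untreated libraries of all 3 lines.

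Tuba3b, which was high in B16F10 alone, has Lmntd1 ending 1437 bases before it and Rassf8 starting 125268 bases beyond it on chromosome 6. Lmntd1 was at most 27 counts in any library, and Rassf8 was at 48.7 and 49.8 CPM in untreated B16F10 against 37.4 and 40.2 CPM in B16F0 and 84.1 and 85.8 CPM in MelanA. The level of Tuba3b was thus not shared by its nearest protein-coding neighbours. These genes were looked at after the values of Tubb3 and Tuba3b had been seen.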
